A study of Mus musculus with 18 samples.

Results

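Type I interferon-stimulated genes were followed in the cerebral cortex of mice of 3 genotypes. The set held 45 genes chosen by symbol: the antiviral effectors, nucleic acid sensors, transcription factors and modifiers that interferon induces in most tissues. All 45 were found among the 55385 genes of the count table, and 44 passed the filter on low counts that left 18717 genes for testing. Mx1 and Mx2 lie inside the duplicated segment and are treated apart, which leaves 43 members outside it, 42 of them tested. Oas3 was the member not tested.

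The samples were polyadenylated RNA of cortex from 6 WT, 6 Dp16 and 6 Dp16_2xIFNRs mice, none of them treated. WT was wild-type C57BL/6J. The Dp16 genotype, a model of trisomy 21, duplicates a segment of chromosome 16, so that each gene of the segment has an added copy. Dp16_2xIFNRs mice carry the same duplication with the interferon receptor genes inside it returned to normal dosage. Each group held 3 males and 3 females, aged 17.1 to 18 weeks in WT and Dp16 and 17.7 to 18 weeks in Dp16_2xIFNRs. The labels number the samples within a genotype without stating what separates them, so p-values measure the spread between these samples.

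Type I interferons signal through a receptor made of IFNAR1 and IFNAR2, whose kinases JAK1 and TYK2 phosphorylate STAT proteins. STAT2 acts with IRF9 in a complex that binds interferon-stimulated response elements in promoters and turns on genes that sense viral nucleic acid, block translation, degrade RNA, tag proteins with ISG15 or restrict virus release. In brain, these genes are held at low tonic levels and can be induced in neurons, glia and vascular cells.

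The promoters of some members that recur below show a motif like this response element. RefSeq held a window for 34 of the 45 members (build GRCm38.p6), and the 250 bases before the start were searched on both strands for an ISRE-like motif, GAAA followed by any 2 bases and a second GAAA. It was present in 12 of the 34 members (35.3%) and in 3.46% of the 27025 genes with a window. Ifi27, Mx1 and Mx2 were among the members without a window. The 4 windows below are printed 5′ to 3′ on the gene's strand, with the motif on either strand in capitals. They were chosen because Isg15 and Bst2 hold overlapping copies, as Oas1a also does, and because Ifit3 and Ifit3b are neighbours whose promoters can be compared.
Isg15, chr4:156200819-156201068, minus strand: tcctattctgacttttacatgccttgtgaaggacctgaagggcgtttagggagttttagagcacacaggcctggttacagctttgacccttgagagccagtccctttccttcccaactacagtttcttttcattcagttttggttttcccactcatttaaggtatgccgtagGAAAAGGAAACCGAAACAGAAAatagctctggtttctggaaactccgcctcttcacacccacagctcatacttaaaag
Bst2, chr8:71537473-71537722, minus strand: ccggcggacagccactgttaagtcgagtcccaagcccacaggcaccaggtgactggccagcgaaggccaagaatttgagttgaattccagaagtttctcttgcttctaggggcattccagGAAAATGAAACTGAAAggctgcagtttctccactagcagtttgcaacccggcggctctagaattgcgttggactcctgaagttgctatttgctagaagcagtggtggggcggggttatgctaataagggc
Ifit3, chr19:34583279-34583528, plus strand: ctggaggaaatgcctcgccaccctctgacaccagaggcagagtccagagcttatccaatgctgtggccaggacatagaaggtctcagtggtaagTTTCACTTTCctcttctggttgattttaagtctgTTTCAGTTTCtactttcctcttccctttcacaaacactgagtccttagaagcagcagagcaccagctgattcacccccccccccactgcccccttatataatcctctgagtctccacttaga
Ifit3b, chr19:34607707-34607956, plus strand: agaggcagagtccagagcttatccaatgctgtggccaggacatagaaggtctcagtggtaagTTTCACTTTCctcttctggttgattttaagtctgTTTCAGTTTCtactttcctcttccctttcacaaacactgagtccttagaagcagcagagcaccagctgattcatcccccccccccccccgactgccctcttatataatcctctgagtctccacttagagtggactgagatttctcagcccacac
Isg15 held 3 overlapping matches, the nearest with its first base 66 bases before the start, and Bst2 held 2, the nearest 124 bases before it. Ifit3 and Ifit3b each held 2 separate copies. Aligned with a shift of 32 bases, the Ifit3 and Ifit3b windows were identical at 188 of 218 positions (86.2%), with a longest identical run of 169 bases. The GAS-like motif, TTC and GAA with any 3 bases between them, was in 4 of 34 members (11.8%) against 8.13% of all genes with a window. Lgals3bp, described below, had no ISRE-like match in its window, which says only that these letters are absent there. As a description, the 11 tested members outside the segment with an ISRE-like match had a median log2 fold change of 0.32 in Dp16 and 0.39 in Dp16_2xIFNRs. Without a match, the 22 tested members had medians of 0.15 and 0.19.

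Library totals ran from 46346019 to 67281449 counts. Cortical neuron markers were abundant in every library, at a summed 11100 to 13400 CPM (counts scaled to library size). WT replicate 6 stood apart: 20 of the 42 tested members outside the segment had their lowest value of all 18 libraries there. The same library had the lowest summed level of the microglia, border macrophage, white blood cell, endothelium, astrocyte and meningeal fibroblast markers. Dp16 replicate 4 held the highest value of 12 members, and the highest sums of the border macrophage, white blood cell and endothelium markers. Choroid plexus markers summed to 382 CPM in Dp16 replicate 3 and 196 CPM in WT replicate 5. Without both WT replicate 6 and Dp16 replicate 3, 37 of 42 members lay above WT in Dp16, with a median log2 fold change of 0.20. Counts over members are also given below without WT replicate 6, and the part of cell makeup in any result was not tested. In bulk tissue, fewer cells of a type and less RNA per cell cannot be told apart.

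Members outside the segment were shifted upward by a small amount in both duplication genotypes, and few passed the test singly. In Dp16 against WT, 39 of the 42 had a higher fitted level than WT, and the median log2 fold change over the 42 was 0.24 (1.18-fold). Of all genes tested, 49.3% lay above WT. Called higher were 3 members, Lgals3bp, Ifi27 and Bst2, and none lower, beside a background of 0.636% of all genes called higher. A call is an adjusted p below 0.05 in edgeR's quasi-likelihood test with Benjamini-Hochberg adjustment over all genes, and adjusted p-values below come from it unless another tool is named. At an unadjusted p below 0.05, 13 members were higher and none lower (5.02% of all genes higher and 3.82% lower). The libraries of Dp16 and WT did not overlap in 4 members, Lgals3bp, Bst2, Ifi27 and Slfn2, where 0.721% of all genes had every Dp16 library above every WT library.

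In Dp16_2xIFNRs against WT, 40 of the 42 lay above WT, with a median of 0.24 (1.18-fold), where 50.2% of all genes did. Lgals3bp and Ifi27 were called higher (0.737% of all genes), 17 members were higher at an unadjusted p below 0.05 (6.05% of all genes), and none was lower (5.48% of all genes). No member had all Dp16_2xIFNRs libraries above all WT libraries, against 0.93% of all genes. Both comparisons share the same 6 WT libraries, so their likeness is no independent support. With both duplication genotypes averaged against WT, 39 of 42 lay above WT (49.6% of all genes) and the median was 0.22. Lgals3bp, Ifi27 and Bst2 were called (0.967% of all genes called higher), and 18 members were higher at an unadjusted p below 0.05 (6.57% of all genes). In 0 members did all 12 duplication libraries lie on one side of all WT libraries (0.438% of all genes higher and 0.0855% lower).

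Leaving out WT replicate 6 lowered these values: 36 of 42 members lay above WT in Dp16 with a median of 0.17, and 36 of 42 in Dp16_2xIFNRs with a median of 0.19. Calls then numbered 2 in Dp16 (0.54% of all genes called higher in the same fit) and 1 in Dp16_2xIFNRs (0.71%). Leaving out WT replicate 4, which had 34 of 42 members above their WT mean, raised the medians to 0.30 and 0.28, and the calls numbered 2 (0.599% of all genes) and 4 (0.658%).

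**Figure D1:**
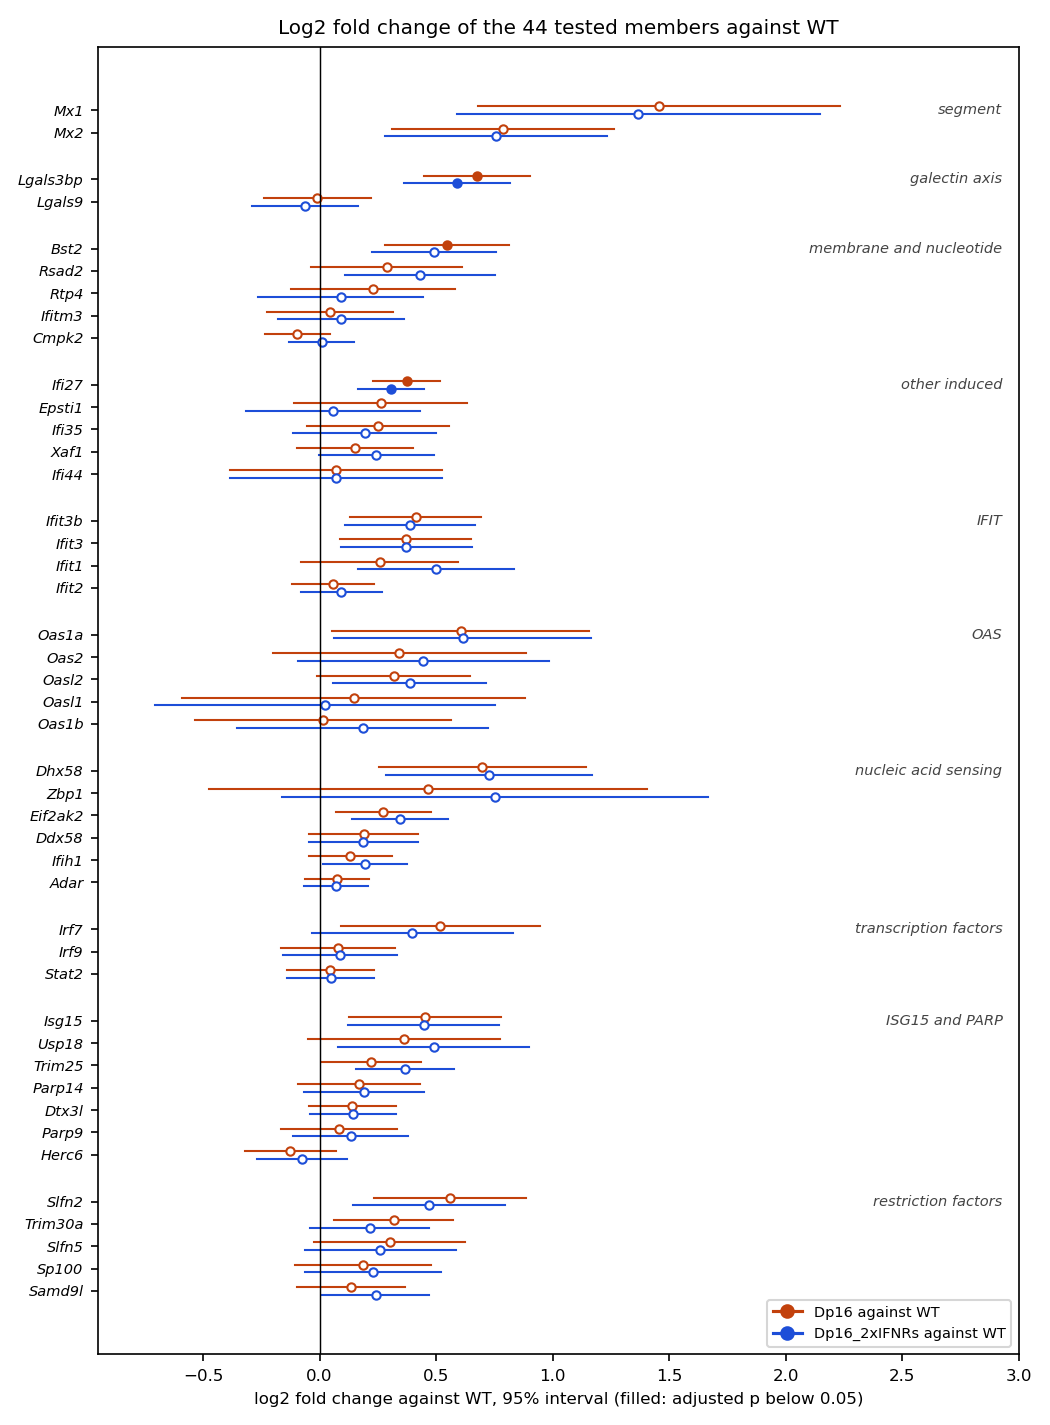
Log2 fold change against WT (x axis) with its 95% interval for the 44 tested members (y axis), grouped by subclass, for Dp16 in red and Dp16_2xIFNRs in blue; filled points have an adjusted p below 0.05. Most points lie to the right of 0, the filled ones are Lgals3bp, Bst2 and Ifi27, and the intervals of Mx1, Zbp1 and Oasl1 are among the widest.

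The direct comparison of Dp16_2xIFNRs with Dp16 called no member. Of the 42 members, 25 lay above Dp16 (50.9% of all genes), with a median of 0.01 and a range from -0.21 to 0.29. In edgeR's test none was called (0% of all genes higher and 0.0214% lower), nor by DESeq2, and 0 reached an unadjusted p below 0.05 (0.796% of all genes higher and 1.39% lower). In 0 members did all libraries of one genotype lie above all of the other (0.0321% of all genes higher and 0.0748% lower). For Ifi27, the called member of smallest SE, the log2 difference was -0.07 with a 95% interval from -0.21 to 0.07. For Lgals3bp it was -0.09 (interval -0.31 to 0.14) and for Bst2 -0.06 (interval -0.32 to 0.20). With 6 libraries a group, true differences within these intervals are not excluded.

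Mx1 and Mx2 encode dynamin-like GTPases that trap viral nucleoproteins, and they sit at chr16:97447035-97462907 and chr16:97535308-97560900 (GRCm38, GENCODE M21), in the segment taken from Lipi to Zbtb21. Both are annotated as polymorphic pseudogenes in the deposited table, and inbred laboratory strains are known for defective Mx alleles. Mx1 ran from 0.0206 to 0.373 CPM in WT (median 0.210), from 0.314 to 0.63 in Dp16 (median 0.549) and from 0.259 to 0.693 in Dp16_2xIFNRs (median 0.489). All but the highest WT library lay below all Dp16 libraries, and the groups overlapped in both comparisons. These levels rest on few reads, 1 to 18 counts per WT library, 16 to 39 per Dp16 library and 16 to 34 per Dp16_2xIFNRs library.

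The log2 fold change of Mx1 was 1.46 ± 0.37 (SE) in Dp16, a 2.75-fold difference with a 95% interval of 0.68 to 2.23 on the log2 scale and an adjusted p of 0.088. In Dp16_2xIFNRs it was 1.37 ± 0.37 (adjusted p = 0.0958). With both duplication genotypes against WT, Mx1 was called, at 1.41 ± 0.34 (adjusted p = 0.0361), but the call was lost in 12 of 18 fits that left out 1 library, the highest adjusted p being 0.0996 when WT replicate 3 was left out. The call remained without WT replicate 4 or 6, Dp16 replicate 2 or 3, or Dp16_2xIFNRs replicate 3 or 4. Without WT replicate 4, the highest WT library, Mx1 was also called in Dp16, at 1.78 (adjusted p = 0.0296), and at 1.69 in Dp16_2xIFNRs (adjusted p = 0.0418).

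Mx2 had more reads, 25 to 101 counts per library. It ran from 0.518 to 0.933 CPM in WT (median 0.729), from 0.883 to 1.67 in Dp16 (median 1.15) and from 0.599 to 1.64 in Dp16_2xIFNRs (median 1.22). Dp16 overlapped WT only at its lowest library, and Dp16_2xIFNRs reached further down into the WT range. The log2 fold change was 0.79 ± 0.23 in Dp16 (adjusted p = 0.174), and that of Dp16_2xIFNRs was 0.76 ± 0.23 (adjusted p = 0.145), neither called. Without Dp16_2xIFNRs replicate 4 the latter became 0.92 (adjusted p = 0.0243). The other 109 tested genes of the segment, without the receptors, had a median log2 fold change of 0.54 (1.46-fold) in Dp16 and 0.56 in Dp16_2xIFNRs. That median lay inside the interval of Mx2 and below that of Mx1 in Dp16.

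Lgals3bp, a secreted glycoprotein that binds galectins, had the largest called difference. It lies at chr11:118392751-118402092. Its level ran from 9.94 to 21.5 CPM in WT (median 15.8), from 22.3 to 28.5 in Dp16 (median 25) and from 20.5 to 26.3 in Dp16_2xIFNRs (median 24.2). No Dp16 library reached down to a WT library, and a single Dp16_2xIFNRs library fell below the highest WT library. Lgals3bp rose by 0.68 ± 0.11 (SE) on the log2 scale in Dp16 (1.60-fold, adjusted p = 0.00181) and by 0.59 ± 0.11 in Dp16_2xIFNRs (1.5-fold, adjusted p = 0.00727). It was called in every fit tried, with each library left out and under each other setting.

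Ifi27, a small hydrophobic protein of mitochondrial and nuclear membranes, rose by less and had the smallest SE of the called members (chr12:103434211-103440239). It ran from 13.2 to 16 CPM in WT (median 14.4), from 16.3 to 20.3 in Dp16 (median 18.8) and from 15.6 to 19.6 in Dp16_2xIFNRs (median 18.2). Dp16 libraries were all above WT libraries, while the lowest Dp16_2xIFNRs library lay within the WT range. The rise was 0.37 ± 0.07 in Dp16 (1.30-fold, adjusted p = 0.00597) and 0.31 ± 0.07 in Dp16_2xIFNRs (1.24-fold, adjusted p = 0.0313). The call in Dp16_2xIFNRs was lost without WT replicate 1, 2 or 6 or Dp16_2xIFNRs replicate 1, 2, 5 or 6, with an adjusted p of up to 0.0844.

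Bst2, or tetherin, holds budding virions at the cell surface (chr8:71534255-71537456), and its promoter is printed above with its overlapping ISRE-like matches. It ran from 1.66 to 2.56 CPM in WT (median 2.24), from 2.83 to 3.93 in Dp16 (median 2.99) and from 2.23 to 3.76 in Dp16_2xIFNRs (median 3.22). WT and Dp16 did not overlap, and 2 Dp16_2xIFNRs libraries lay within the WT range. Bst2 rose by 0.55 ± 0.13 in Dp16 (1.46-fold, adjusted p = 0.0492), and its log2 fold change in Dp16_2xIFNRs was 0.49 ± 0.13 (adjusted p = 0.0762). The call in Dp16 is marginal: it remained without Dp16 replicate 6 or Dp16_2xIFNRs replicate 4 and was lost without any other single library, the highest adjusted p being 0.134 when WT replicate 3 was left out. It was also lost with scaling by genes outside the segment (adjusted p = 0.0505), with no sex term (0.09), with age added (0.0631) and in limma-voom (0.0805), where the number in the sample descriptions as a random block gave 0.0991. In Dp16_2xIFNRs, Bst2 was called with DESeq2 (adjusted p = 0.0185), with limma on log2 RPKM (0.039 and 0.0412 with pseudocounts of 0.1 and 0.5) and by edgeR without Dp16_2xIFNRs replicate 4 (0.00826).

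**Figure D2:**
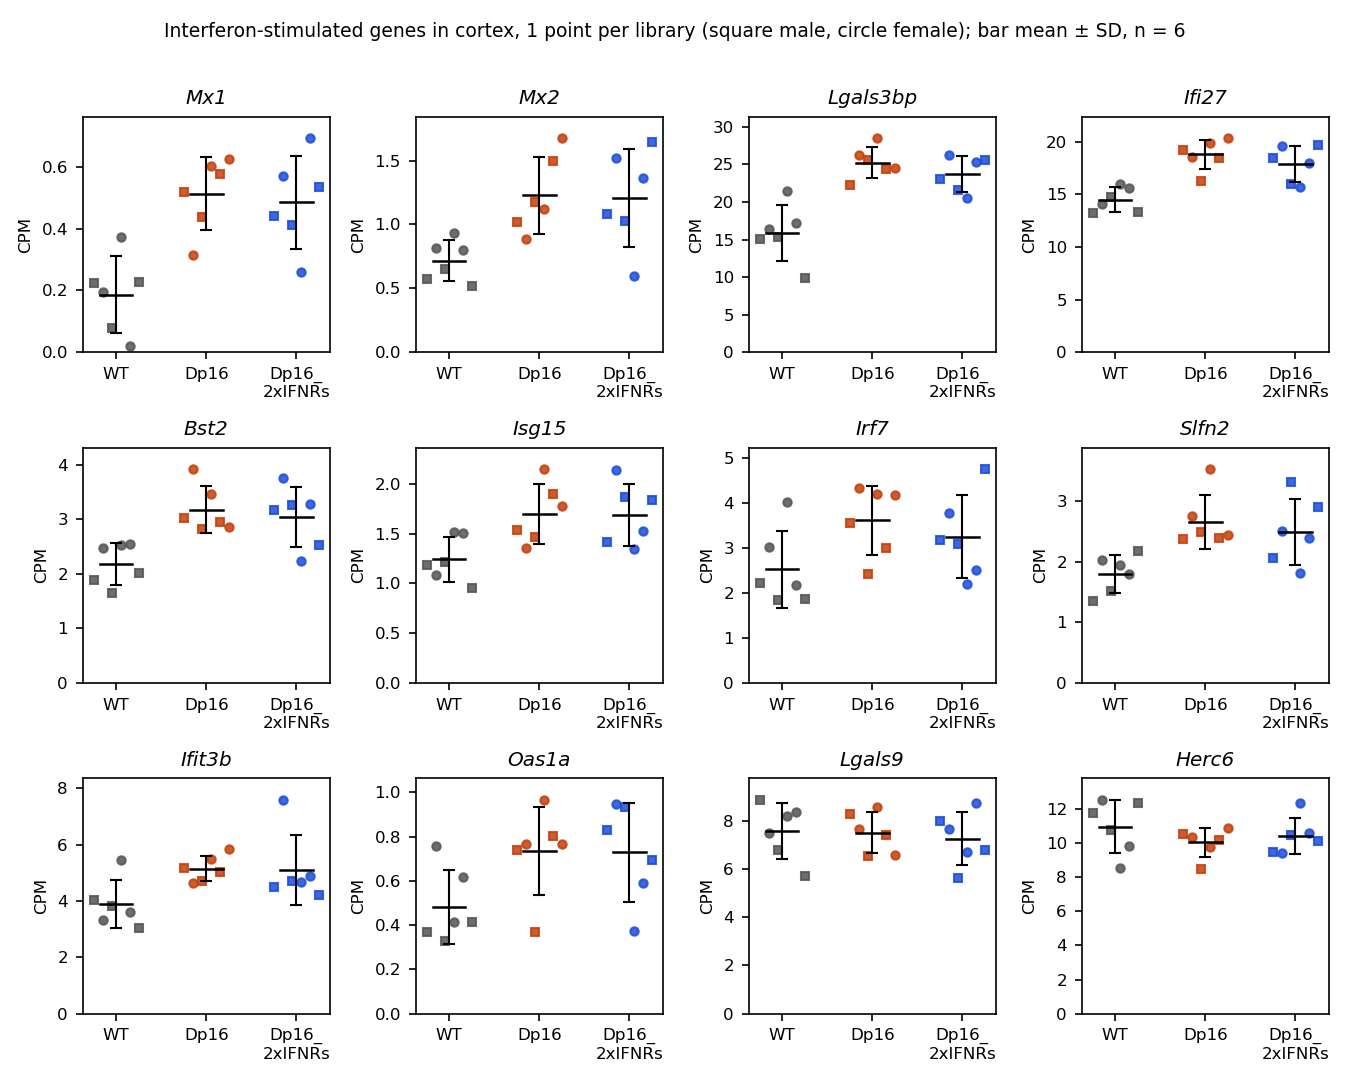
CPM (y axis, from 0) of 12 members in each of 18 libraries, by genotype (x axis); squares are males, circles females, the horizontal bar is the mean and the whiskers the SD over 6 libraries. WT and Dp16 do not overlap for Lgals3bp, Ifi27, Bst2 and Slfn2, while Lgals9 and Herc6 overlap throughout.

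Upstream of the members, the 4 receptor genes of the segment were higher in Dp16 than in both other genotypes. Ifnar1 ran from 41.3 to 50.1 CPM in WT (median 43.5), from 61.8 to 65.6 in Dp16 (median 65.3) and from 44.1 to 47.2 in Dp16_2xIFNRs (median 45.6), so that only Dp16 stood apart. Ifnar1 rose by 0.54 ± 0.04 in Dp16 (adjusted p = 1.77e-07), Ifnar2 by 0.57 ± 0.06 (adjusted p = 1.01e-05), Ifngr2 by 0.63 ± 0.05 (adjusted p = 8.33e-08) and Il10rb by 0.49 ± 0.09 (adjusted p = 0.00386). In Dp16_2xIFNRs none of the 4 was called, with log2 fold changes from -0.05 to 0.06, and all 4 were called lower than in Dp16. Ifngr1 and Ifnlr1, the receptor genes outside the segment, were not called in any comparison.

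The interferon genes themselves were close to absent from these libraries. None of the 12 listed ligand genes passed the filter, and their summed counts were 0 to 3 over the 6 libraries of a group, with Ifnb1 at 0 in all 18. Of the signal transducers, Jak1, Jak2, Tyk2 and Stat3 were not called, with log2 fold changes of -0.03 to 0.12. Among the 12 genes that lead to interferon production (such as Mavs, Tbk1, Irf3 and the endosomal Toll-like receptors), 10 lay above WT in Dp16 and 6 in Dp16_2xIFNRs, none called. All 5 feedback genes (Socs1, Socs3, Ptpn2, Ptpn6 and Pias1) lay below WT in both genotypes, none called, with medians of -0.07 and -0.05.

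Of the transcription factor members, Irf7, the factor that amplifies interferon expression, had the largest log2 fold change. Irf7 ran from 1.83 to 4.02 CPM in WT (median 2.21), from 2.41 to 4.32 in Dp16 (median 3.87) and from 2.19 to 4.75 in Dp16_2xIFNRs (median 3.12). The groups overlapped widely. Its log2 fold changes were 0.52 ± 0.20 (adjusted p = 0.422) and 0.40 ± 0.21 (adjusted p = 0.48), and its exons overlap those of Phrf1 on the other strand. Irf9 and Stat2, the other subunits of the factor that binds the response element, were at 0.08 and 0.05 in Dp16 and 0.09 and 0.05 in Dp16_2xIFNRs. This subclass had the lowest median of the 9 outside the segment in both comparisons, 0.08 in Dp16 and 0.09 in Dp16_2xIFNRs.

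All 6 nucleic acid sensing members lay above WT in both genotypes, with medians of 0.23 in Dp16 and 0.27 in Dp16_2xIFNRs, and none was called. Dhx58 encodes LGP2, a regulator of the RNA helicase sensors RIG-I and MDA5. Dhx58 ran from 0.790 to 1.63 CPM in WT (median 0.977), from 1.04 to 2.41 in Dp16 (median 1.82) and from 1.04 to 2.32 in Dp16_2xIFNRs (median 1.94). The groups overlapped from 1.04 to 1.63 CPM, over most of the WT range. The log2 fold changes of Dhx58, 0.70 ± 0.21 (adjusted p = 0.209) and 0.73 ± 0.21 (adjusted p = 0.128), were the largest outside the segment in Dp16 and the second largest in Dp16_2xIFNRs. Without Dp16 replicate 2 the first was 0.83 (adjusted p = 0.0494). Exons of Dhx58 overlap an antisense gene.

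RIG-I (Ddx58) was at 0.19 in both genotypes, MDA5 (Ifih1) at 0.13 and 0.19, and the translation-blocking kinase PKR (Eif2ak2) at 0.27 and 0.35. Zbp1, a sensor of left-handed nucleic acid, had 4 to 31 counts per library, and its values of 0.46 and 0.75 carried SEs of 0.45 and 0.44. Adar, the enzyme that edits adenosine in double-stranded RNA, was the member of highest level, at 34.5 RPKM (counts scaled to gene length and library size) on average. It ran from 159 to 233 CPM in WT (median 201), from 193 to 223 in Dp16 (median 210) and from 195 to 222 in Dp16_2xIFNRs (median 212). The duplication libraries lay inside the WT range, and the log2 fold changes were 0.08 ± 0.07 (adjusted p = 0.834) and 0.07 ± 0.07 (adjusted p = 0.786).

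The oligoadenylate synthetases activate RNase L when they meet double-stranded RNA. The 5 tested of 6 members lay above WT in both genotypes, with medians of 0.32 and 0.39, and none was called. Oas1a ran from 0.328 to 0.758 CPM in WT (median 0.414), from 0.367 to 0.967 in Dp16 (median 0.766) and from 0.372 to 0.949 in Dp16_2xIFNRs (median 0.763). The ranges overlapped over most of their length, and the log2 fold changes were 0.60 ± 0.26 (adjusted p = 0.511) and 0.61 ± 0.26 (adjusted p = 0.362). Of its transcript stretches of 100 bases, 40.9% also occur in other genes, chiefly Oas1g, so its count is uncertain. Oas2 was at 0.34 and 0.44, Oasl2 at 0.32 and 0.39, Oasl1 at 0.15 and 0.02, and Oas1b, annotated as a polymorphic pseudogene, at 0.02 and 0.18. Oas3 had 1 to 3 counts per WT library, 2 to 12 per Dp16 library and 1 to 18 per Dp16_2xIFNRs library, too few to test.

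The IFIT proteins bind viral RNA ends and block its translation. All 4 members lay above WT, with medians of 0.31 in Dp16 and 0.38 in Dp16_2xIFNRs, and none was called. Ifit3b ran from 3.04 to 5.45 CPM in WT (median 3.72), from 4.65 to 5.83 in Dp16 (median 5.11) and from 4.20 to 7.59 in Dp16_2xIFNRs (median 4.69). Only the highest WT library reached into the Dp16 range. Ifit3b was at 0.41 ± 0.13 (adjusted p = 0.249) and 0.39 ± 0.13 (adjusted p = 0.216), beside 0.37 and 0.37 for Ifit3, 0.26 and 0.50 for Ifit1 and 0.06 and 0.09 for Ifit2. Ifit3 and Ifit3b share transcript sequence as well as promoter sequence: 31.6% of the 100-base stretches of Ifit3 and 27.4% of those of Ifit3b occur in another gene, so reads could be split between them.

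Isg15 is a ubiquitin-like modifier, Herc6 and Trim25 act as its ligases, and Usp18 removes it. Isg15 ran from 0.952 to 1.51 CPM in WT (median 1.2), from 1.35 to 2.15 in Dp16 (median 1.66) and from 1.34 to 2.14 in Dp16_2xIFNRs (median 1.68). The lower duplication libraries overlapped the upper WT libraries, and the log2 fold changes were 0.45 ± 0.16 (adjusted p = 0.297) and 0.45 ± 0.16 (adjusted p = 0.222). Usp18 was at 0.36 and 0.49 and Trim25 at 0.22 and 0.37, none called. Herc6 had the lowest log2 fold change of all members. It ran from 8.52 to 12.6 CPM in WT (median 11.3), from 8.5 to 10.9 in Dp16 (median 10.3) and from 9.44 to 12.4 in Dp16_2xIFNRs (median 10.3). Its ranges overlapped almost fully, at -0.13 ± 0.09 (adjusted p = 0.784) and -0.08 ± 0.09 (adjusted p = 0.863), and part of its sequence is shared with an overlapping gene model.

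Parp9, Parp14 and Dtx3l, partners in ADP-ribosylation that lie on chromosome 16 outside the segment, were at 0.08, 0.17 and 0.14 in Dp16 and 0.13, 0.19 and 0.14 in Dp16_2xIFNRs. Exons of Parp9 and Dtx3l overlap on opposite strands. Over the 7 members of the ISG15 and PARP subclass, 6 lay above WT in both genotypes and the medians were 0.17 and 0.19.

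Besides Bst2, no membrane and nucleotide member was called. Ifitm3, which blocks virus entry in endosomes, was the third most expressed member at 13.3 RPKM. It ran from 5.82 to 11.6 CPM in WT (median 8.80), from 7.63 to 10.6 in Dp16 (median 9.06) and from 7.72 to 11.4 in Dp16_2xIFNRs (median 9.18), with full overlap. Its log2 fold changes were 0.05 ± 0.13 (adjusted p = 0.969) and 0.09 ± 0.13 (adjusted p = 0.889).

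Cmpk2, a mitochondrial nucleotide kinase, and Rsad2, or viperin, which makes a chain-terminating nucleotide, are neighbours on chromosome 12. Cmpk2 ran from 19.8 to 25.5 CPM in WT (median 22.3), from 19.0 to 23.8 in Dp16 (median 20.9) and from 21.1 to 24.5 in Dp16_2xIFNRs (median 22.8). Its groups overlapped, at -0.10 ± 0.07 (adjusted p = 0.759) and 0.01 ± 0.07 (adjusted p = 0.99), whereas Rsad2, at a lower level of 0.681 RPKM, was at 0.29 and 0.43, not called. Rtp4, a chaperone of receptor proteins, was at 0.23 and 0.09. Lgals9, a galectin, ran from 5.69 to 8.87 CPM in WT (median 7.84), from 6.54 to 8.56 in Dp16 (median 7.52) and from 5.62 to 8.72 in Dp16_2xIFNRs (median 7.21). It showed no separation of the groups, at -0.01 ± 0.11 (adjusted p = 0.992) and -0.06 ± 0.11 (adjusted p = 0.916), although its window holds an ISRE-like match.

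The 5 restriction factor members all lay above WT, with medians of 0.30 and 0.24. Slfn2, a Schlafen protein needed for T cell quiescence, ran from 1.35 to 2.17 CPM in WT (median 1.87), from 2.38 to 3.53 in Dp16 (median 2.46) and from 1.81 to 3.31 in Dp16_2xIFNRs (median 2.44). Every Dp16 library lay above every WT library, and Dp16_2xIFNRs overlapped WT. Its log2 fold changes, 0.56 ± 0.16 (adjusted p = 0.143) and 0.47 ± 0.16 (adjusted p = 0.192), were not called. DESeq2 called Slfn2 in Dp16 (adjusted p = 0.0395), and no other alternative did. With both duplication genotypes against WT it was not called (adjusted p = 0.0696), but was with DESeq2 (adjusted p = 0.0147). There, edgeR also called it without WT replicate 6 (adjusted p = 0.0453) or Dp16_2xIFNRs replicate 4 (adjusted p = 0.0338). Trim30a was at 0.32 and 0.22, Slfn5 at 0.30 and 0.26, Sp100 at 0.19 and 0.23 and Samd9l at 0.13 and 0.24. Of the remaining members, Epsti1 was at 0.26 and 0.06, Ifi35 at 0.25 and 0.19, Xaf1 at 0.15 and 0.24 and Ifi44 at 0.07 and 0.07, none called.

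Across the 9 subclasses outside the segment, the medians ran from 0.08 (transcription factors) to 0.33 (the pair Lgals3bp and Lgals9) in Dp16. In Dp16_2xIFNRs they ran from 0.09 to 0.39, from the transcription factors to the OAS genes. Without WT replicate 6 the membrane and nucleotide median in Dp16_2xIFNRs was 0.00, with 2 of 5 members above WT, and the OAS count above WT in Dp16 was 3 of 5. All 6 sensing, 4 IFIT, 5 restriction factor and 3 transcription factor members stayed above WT in both genotypes without that library.

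The members were then ordered by level and divided into 3 groups of 14. The 14 of lowest level, 0.0912 to 1.13 RPKM, all lay above WT in both genotypes, with median log2 fold changes of 0.28 in Dp16 and 0.20 in Dp16_2xIFNRs, and none was called. In the middle group, 1.16 to 2.20 RPKM, all 14 again lay above WT, with medians of 0.24 and 0.29 and no call. In the group of highest level, 2.20 to 34.5 RPKM, 11 lay above WT in Dp16 and 12 in Dp16_2xIFNRs, with lower medians of 0.08 and 0.09, yet all calls, 3 and 2, were there. Median SEs fell with level, from 0.21 through 0.13 to 0.11 in Dp16. All tested genes outside the segment in the same RPKM ranges had medians in Dp16 of 0.04 (5222 genes), -0.01 (1623 genes) and -0.01 (9283 genes). Of these genes, 21, 4 and 23 were called higher in Dp16, and 27, 6 and 37 in Dp16_2xIFNRs.

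**Figure D3:**
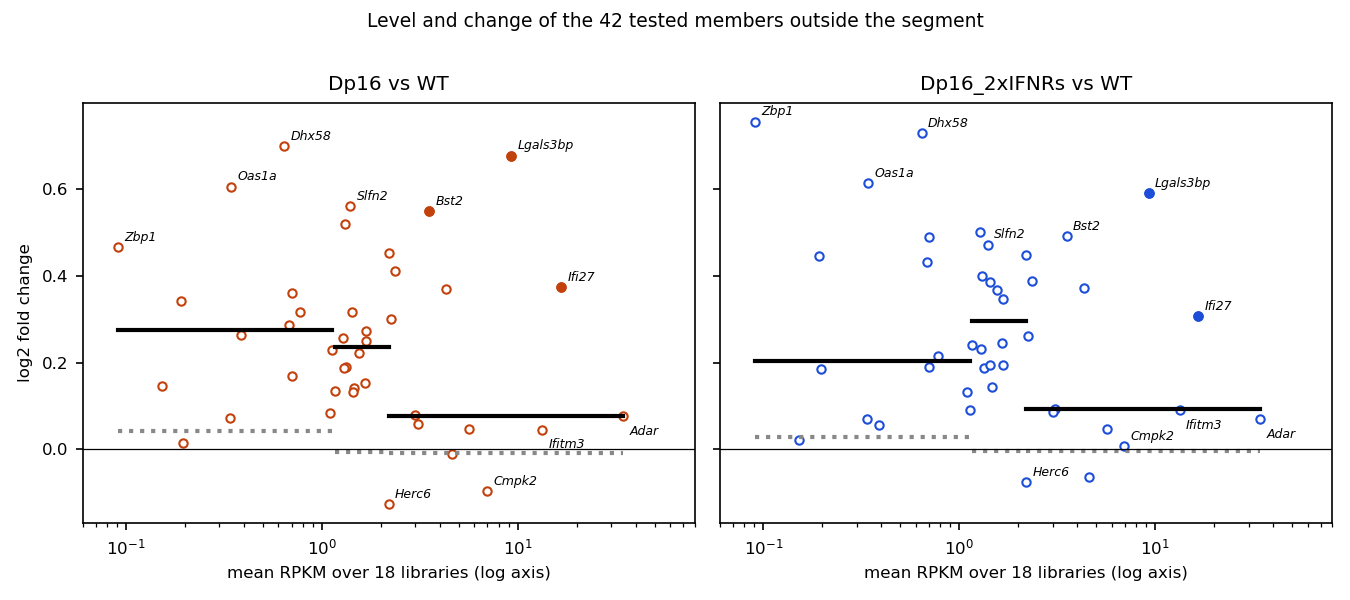
Log2 fold change (y axis) of the 42 tested members outside the segment against mean RPKM over 18 libraries (x axis, log scale), for Dp16 at left and Dp16_2xIFNRs at right; filled points are called, solid black lines are medians of the 14 members of each level group and dotted lines medians of all genes in the same range. The members' medians of the highest group, 0.08 and 0.09, are the lowest, and Lgals3bp, Bst2 and Ifi27 stand above them.

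Counted as RNA rather than as ratios, the difference was concentrated in few members. The summed level of the 43 members outside the segment was 127 ± 8.33 RPKM in WT (SD, n = 6), 146.6 ± 6.95 in Dp16 and 146.5 ± 8.58 in Dp16_2xIFNRs. Ranges were 117.9 to 142.6, 138.2 to 156.6 and 136 to 160.7, so the highest WT library overlapped the duplication groups. Over the 42 tested members, Ifi27 made up 21.9% of the difference in summed RPKM between Dp16 and WT and Lgals3bp 20.8%. Adar, with a small ratio at a high level, made up 9.87%, Bst2 6.5% and Ifit3 5.52%. In Dp16_2xIFNRs the shares were 17.9%, 17.7%, 9.54%, 5.75% and 5.8%. The 5 tested OAS members each made up at most 1.52% in Dp16 and 1.83% in Dp16_2xIFNRs.

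The shift was seen across libraries but with wide spread in WT. For each library, the median over the 42 members of the log2 CPM less the WT mean lay between -0.32 and 0.28 in WT libraries, between 0.12 and 0.41 in Dp16 and between 0.06 and 0.45 in Dp16_2xIFNRs. WT replicate 6 was the lowest and WT replicate 4 the highest of WT, and the latter lay within both duplication groups. Males had a mean of -0.12 in WT, 0.19 in Dp16 and 0.21 in Dp16_2xIFNRs, and females 0.12, 0.33 and 0.26. The WT males include WT replicate 6, the lowest library. Over the 42 members, the male less female difference in log2 fold change had a median of 0.11 in Dp16 and 0.25 in Dp16_2xIFNRs. The genotype by sex interaction called 0 members in either comparison, and 0 of all genes in edgeR's test. At an unadjusted p below 0.05 it found 3 members in Dp16 (3.08% of all genes) and 5 in Dp16_2xIFNRs (5.87% of all genes).

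**Figure D4:**
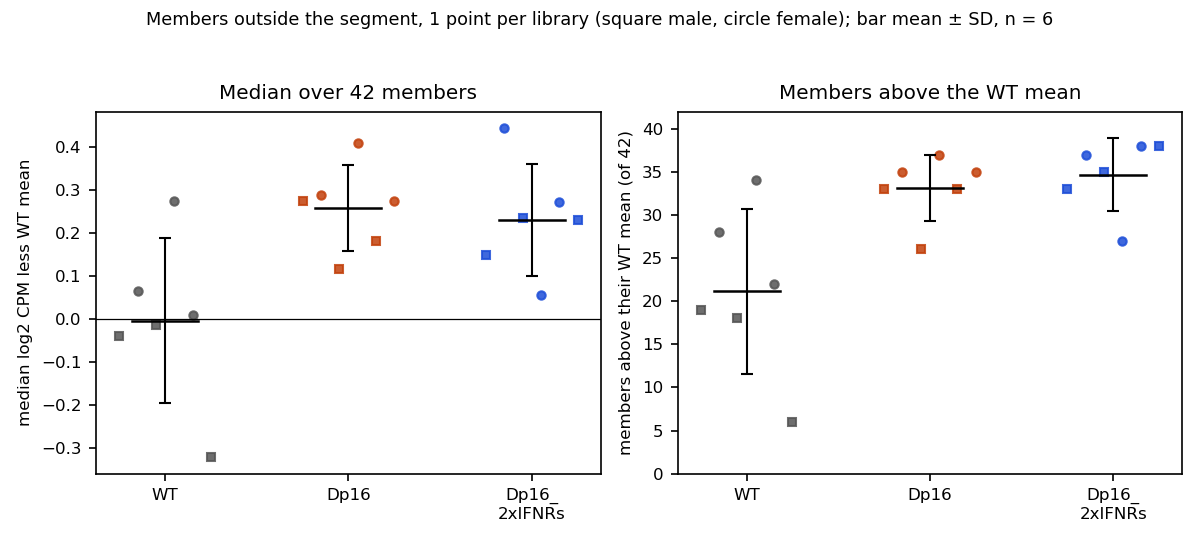
Left, the median over 42 members of log2 CPM less the WT mean (y axis), and right, the number of the 42 members above their WT mean (y axis), for each of 18 libraries by genotype (x axis); squares are males, circles females, bars the mean and whiskers the SD over 6 libraries. WT replicate 6 lies lowest in both panels, at -0.32 and 6 members.

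Markers of other cell types that the cortex samples could hold were compared in the same way. Of 14 white blood cell markers 6 were tested, and all 6 lay above WT in both genotypes, none called. Their median log2 fold change was 0.95 in Dp16 and 0.65 in Dp16_2xIFNRs, beside the members' 0.24 in each. The median SE of these markers in Dp16 was 0.338, against 0.132 for the members, so single markers were measured less precisely. At an unadjusted p below 0.05, 4 of the 6 were higher in Dp16 (5.02% of all genes) and 2 in Dp16_2xIFNRs (6.05% of all genes). The sum over the 14 ran from 2.42 to 3.75 CPM in WT, 2.5 to 5.95 in Dp16 and 3.74 to 4.61 in Dp16_2xIFNRs. The defining T cell, B cell and natural killer cell markers Cd3d, Cd3g, Ms4a1, Ncr1 and Nkg7 had under 10 counts in every library, and none of the 14 was at 0 throughout. Of 10 border macrophage markers, 6 lay above WT in Dp16 and 8 in Dp16_2xIFNRs, and their sums ran from 23.1 to 42.8, 34.5 to 47.9 and 28.7 to 45.8 CPM. Called among them in Dp16 were Siglec1 (1.37, adjusted p = 0.027), itself known as an interferon-induced gene, and Folr2 (1.12, adjusted p = 0.0386). In Dp16_2xIFNRs, Siglec1 was at 1.03 (adjusted p = 0.128) and Folr2 at 0.54 (adjusted p = 0.437), neither called.

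Of 12 microglia markers, 9 lay below WT in Dp16 and 10 in Dp16_2xIFNRs, none called, with medians of -0.11 and -0.14. Lower at an unadjusted p below 0.05 were 3 in Dp16 (3.82% of all genes) and 4 in Dp16_2xIFNRs (5.48% of all genes), and none was higher. Sums over the 12 overlapped, at 374 to 579 CPM in WT, 433 to 519 in Dp16 and 435 to 514 in Dp16_2xIFNRs. Endothelium markers summed to 466 to 706, 562 to 781 and 523 to 667 CPM, with 5 and 4 of 12 above WT and none called. Whether these cell types had a part in the members' values was not tested.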

How the data were processed

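TRIzol RNA was enriched for polyadenylated molecules and sequenced from both ends as strand-specific libraries, per the labels' protocols. The submitters' processing notes name bcl2fastq, FastQC 0.11.5, HISAT2 2.1.0, SAMtools 1.5, HTSeq 0.6.1 and the build GRCm38. Sources used here do not give the strand setting of the counting or the handling of reads that match several genes, so overlapping genes and close copies are uncertain. Raw counts and RPKM values per gene were deposited by the authors. The RPKM equalled count over library total and a fixed length per gene, with a largest relative spread of 9.2e-15 over 31735 genes. RPKM served for levels and for an alternative fit.

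Counts were filtered with filterByExpr (minimum count 10), scaled by TMM and tested with edgeR 4.0.16 (quasi-likelihood, robust) in R 4.3.3, fitting genotype and sex over the 18 libraries together, leaving 14 residual degrees of freedom and a common biological coefficient of variation of 12.2%. Calls required a Benjamini-Hochberg adjusted p under 0.05 over all tested genes. Per-library log2 CPM used a prior count of 2. CPM was computed from the counts and TMM factors. Alternatives used DESeq2 1.42.0, limma 3.58.1, other filters, other terms, blocks and each library left out. Positions are from GENCODE M21, matched by identifier for 55144 of 55385 genes, and the segment was taken as chromosome 16, 75540514 to 97962622. Of 41 pathway symbols, 40 matched.

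The members and lists were chosen with earlier results of these data known. Given in full are 16 members: Mx1 and Mx2, every called member, the 4 outside the segment with the largest and the 3 with the smallest log2 fold change in Dp16, the 4 of highest mean RPKM, and the member of smallest p in each subclass. Other members are given by log2 fold change. On data simulated for Dp16 against WT over 18717 genes, the test called 46% of genes changed 1.25-fold, 68% of those changed 1.5-fold and 0.0486% of unchanged genes. The changed genes were drawn from all tested genes, whose median SE in Dp16 was 0.0925, against 0.132 for the members outside the segment. These rates are therefore not those of the members, for which none were computed. Within groups, the smallest mean squared difference between 2 libraries was 13.9 times its counting variance, so no library was a copy of another. A number in the sample descriptions, whose meaning the labels do not state, was shared by 7 pairs of libraries of different genotype. All 7 correlated at over 0.1 (0.104 to 0.428), but the libraries of each pair were also of the same sex. Sex was left in the values correlated, so the number and sex cannot be told apart there. The number entered an alternative as a random block (consensus correlation 0.25). Some results for listed pathway and marker genes are not reported here.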

Additional observations from a re-analysis of the deposited data

Results flagged for a closer look

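Outlying libraries were looked for with Dixon's ratio, the gap to the nearest library over the group's range, in 51 groups of 6 libraries. Both groups below passed Dixon's critical value at the 95% level, and chance marks about 5% of groups. Slfn2 in Dp16 replicate 4 stood at 3.53 CPM, with the nearest Dp16 library at 2.75 and a ratio of 0.678. Ifit3b in Dp16_2xIFNRs replicate 2 stood at 7.59 CPM, with the nearest library at 4.89 and a ratio of 0.796.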

How the results depend on the processing

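The count of members called was 3 in Dp16 (0.636% of all genes called higher) and 2 to 4 over all alternatives. It was 4 with DESeq2 (1.02% of all genes called higher in that fit). In the other alternatives the share of all genes called higher was 0.313% to 0.765%. In Dp16_2xIFNRs against WT it was 2, and became 6 with DESeq2 (1.32% of all genes called higher in that fit), 1 with only the compared genotypes in the fit (0.677%), and 1 to 4 with 1 library left out, 4 without WT replicate 4 (0.658%). For both duplication genotypes it was 3, and became 8 with DESeq2 (1.81%) and 2 to 7 with 1 library left out, 7 without WT replicate 4 (0.88%) and 5 without Dp16 replicate 2 (1.11%). No member was called between Dp16_2xIFNRs and Dp16 under any alternative. Medians over members lay between 0.14 and 0.30 for Dp16, and between 0.16 and 0.28 for Dp16_2xIFNRs.

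The log2 fold change of Mx1 in Dp16 was 1.47 with DESeq2 (adjusted p = 0.00849) and 1.46 without a filter (edgeR adjusted p = 0.0468), and 1.22 to 1.78 with 1 library left out. In Dp16_2xIFNRs it was 1.38 with DESeq2 (adjusted p = 0.0149) and 1.13 to 1.69 with 1 library left out, and Mx2 ran from 0.63 to 0.92. For both genotypes Mx1 was 1.44 with the replicate number as a block (edgeR adjusted p = 0.0515), 1.51 without WT replicate 6 and Dp16 replicate 3 (edgeR adjusted p = 0.052) and 1.17 to 1.74 with 1 library left out. Mx2 was 0.77 with DESeq2 (adjusted p = 0.0136), 0.77 without a filter (edgeR adjusted p = 0.0434) and 0.70 to 0.86 with 1 library left out. On log2 RPKM with a pseudocount of 0.5, which compresses low values, Mx1 was at 0.23 and Mx2 at 0.34 in Dp16, and at 0.22 and 0.32 in Dp16_2xIFNRs; with 0.1, Mx1 was at 0.73 and Mx2 at 0.62 in Dp16. The cause of the other changes was not tested. Mx1 did not pass a filter of 1 CPM.

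Of 56 results for named members outside the segment, 46 kept their side of the threshold throughout. All 8 called results kept their sign, and 19 uncalled results did not, 11 of them between Dp16_2xIFNRs and Dp16 and the rest in Lgals9, Ifitm3 and Cmpk2. Replicate numbers, which the labels do not tie to a litter or day, did not correlate at over 0.1 in every pair (r from -0.181 to 0.428 over 18 pairs, 11 over 0.1). Their median r was 0.178 against -0.0351 for other pairs, and 11 of 18 libraries correlated best with a library of their number. That pattern comes from the data and not the design. Most same-number pairs were also of the same sex, and some shared the number in the sample descriptions. Sex was left in the values correlated, so these cannot be told apart. The replicate block ended the Bst2 call in Dp16 (edgeR adjusted p = 0.0619). With few reads per library, a difference in Mx1, Zbp1, Oasl1 or Oas3 was poorly resolved at this depth.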
